A study of Mus musculus with 6 samples.

Results

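The *Sp* genes encode zinc-finger transcription factors that bind GC-rich boxes, and the genes described here are *Sp1*, *Sp2*, *Sp3*, *Sp4*, *Sp5* and *Sp6*. Their NF-YA binding was read from a table of 9056 CUT&RUN peaks in mouse muscle stem cells (MuSCs). The peaks were chosen by gene symbol, and the family itself was selected on the strong peak of *Sp1*, so the levels below are descriptions with no test. Of the 6 genes, 4 carried an annotated peak, with 1 peak each at *Sp1* and *Sp3* and 2 peaks each at *Sp2* and *Sp4*, which gave 6 of the 9056 peaks. *Sp5* and *Sp6* had none. In all, 4128 genes with a symbol carried a peak. Their share of all genes was not computed, so 4 of 6 is a description only.

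CUT&RUN maps a DNA-bound protein by tethering a nuclease to an antibody, so that DNA next to the bound protein is cut out and sequenced. The study profiled wild type C57BL/6 MuSCs that were cultured in vitro and labelled activated/proliferating, with 1000000 cells per library. There were 3 libraries with an antibody against NF-YA (Sc-17753, Santa Cruz) and 3 with mouse IgG (Millipore). The table gave values of the NF-YA libraries only, so the level over IgG at each peak was not analysed here. In the study, MuSCs were sorted from digested muscle by surface integrin-α7 or by a *Pax7-zsGreen* reporter, and which of these served here is not given in the sources used. All cells carried the same genotype and no treatment was compared. Binding data hold no expression, and the identity of the cells could therefore not be checked against MuSC markers. The values were whole-number normalised reads per peak, not corrected for peak length. By the spacing of these values, 1 read was worth 0.67, 1.48 and 1.02 normalised reads in replicates 1, 2 and 3, which corresponded to 477048, 226901 and 334618 reads inside all peaks. Replicate 2 thus held the fewest reads in peaks, and 3 reads, the limit below which a value is not distinguished from 0 here, equalled 2.01, 4.43 and 3.06 normalised reads. The study's reporting summary gives replicate 2 the most uniquely mapped reads of the 3 NF-YA libraries and the fewest enriched peaks. It gives replicate 1 the fewest such reads and the most such peaks. The reason for this was not tested.

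NF-Y is a trimer in which NF-YA recognises the sequence CCAAT, while NF-YB and NF-YC form a histone-like pair that holds the DNA. CCAAT boxes and the GC boxes bound by SP factors often lie side by side in promoters that lack a TATA box. SP1 is a broadly expressed activator of such promoters, SP3 binds the same GC boxes and can activate or repress, and SP4 is best known from neurons. SP2 is an SP factor that has been found together with NF-Y at CCAAT-containing promoters. SP5 is a target and modulator of Wnt signalling, and SP6 acts in tooth and skin epithelium.

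The stretches of the *Sp* peaks that hold their CCAAT boxes are shown first, because the genes differed in the number and arrangement of these boxes. All were read from GRCm38.p6, the assembly behind the mm10 coordinates of the table, 5′ to 3′ on the strand of the gene. Capitals mark CCAAT, which appears as ATTGG where the box lies on the opposite strand. None of the stretches overlapped an annotated exon of its own gene, and exons of other genes were not checked. They are *Sp1* chr15:102405630-102405876 (plus strand), *Sp2* chr11:96977712-96977840 (minus strand), *Sp3* chr2:72980447-72980546 (minus strand) and, at *Sp4*, chr12:118301989-118302041 for the peak further upstream and chr12:118301562-118301614 for the peak nearer the start (both minus strand).
Sp1, 5 of 8 boxes: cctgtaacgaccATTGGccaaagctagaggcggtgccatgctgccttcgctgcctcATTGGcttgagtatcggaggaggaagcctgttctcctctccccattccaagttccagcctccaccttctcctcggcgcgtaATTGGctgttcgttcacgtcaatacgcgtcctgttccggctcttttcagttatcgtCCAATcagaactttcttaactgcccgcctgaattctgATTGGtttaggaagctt
Sp2, 5 of 8 boxes: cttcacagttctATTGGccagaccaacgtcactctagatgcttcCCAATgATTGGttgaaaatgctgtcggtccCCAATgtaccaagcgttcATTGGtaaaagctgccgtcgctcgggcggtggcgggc
Sp3, 1 box: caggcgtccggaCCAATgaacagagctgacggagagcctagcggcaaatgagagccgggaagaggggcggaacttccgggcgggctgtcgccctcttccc
Sp4 upstream, 1 box: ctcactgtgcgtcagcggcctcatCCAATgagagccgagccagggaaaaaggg
Sp4 proximal, 1 box: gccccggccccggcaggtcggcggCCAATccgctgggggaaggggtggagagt

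*Sp1* carried the second strongest of all 9056 peaks. The peak covered chr15:102405431-102406412 (982 bp) and held 806, 848 and 812 normalised reads in replicates 1, 2 and 3, behind which stood about 1204, 574 and 796 reads. Its mean was 822 ± 22.7 (SD, n = 3), and it was the second peak in each library taken alone. At this peak the replicates lay close together, since their SD was below the 29.5 that counting of reads alone would give. The libraries as a whole differed by more. Summed over all peaks, squared differences were 3.67 (replicates 1 and 2), 4.17 (1 and 3) and 1.68 (2 and 3) times those of counting.

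The *Sp1* peak was centred 222 bp upstream of the start of transcript Sp1-206 at position 102406143 and spanned the starts of 3 of the 6 annotated *Sp1* transcripts. No other gene started within 1000 bp. It held 8 CCAAT boxes, 6 upstream and 2 downstream of the Sp1-206 start, and 7 of them lay on the strand opposite to the gene. The 5 boxes printed above sat 499, 455, 374, 318 and 281 bp upstream of that start. The remaining boxes followed after a gap of 226 bp, at 55 bp upstream and at 38 and 91 bp downstream. The peak also held 6 copies of the GC box GGGCGG, counted on either strand, and one of them shared 2 bases with the last CCAAT box.

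*Sp2* carried the second strong peak of the family. This peak, at chr11:96977542-96978210 (669 bp), held 360, 397 and 382 normalised reads, with a mean of 379.7 ± 18.6 (SD, n = 3), and ranked 56 of 9056. All 3 values were below the lowest *Sp1* value, and they varied by less than the counting SD of 20.0. The table placed it 5083 bp from the *Sp2* start of transcript Sp2-201 at position 96982959, downstream of it and inside an intron. In the gene annotation it also spanned the start of a shorter transcript, Sp2-203 at position 96977711, and its centre was 164 bp upstream of that start.

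The *Sp2* peak also contained 8 CCAAT boxes, in a tighter group than at *Sp1*. They lay between 359 bp upstream and 8 bp downstream of the Sp2-203 start, 3 on the strand of the gene and 5 on the opposite strand. The boxes 83 and 77 bp upstream faced each other with 1 base between them, as the printed sequence shows. Such a facing pair occurred in 9 of all peaks, or 0.0994%. Most of these peaks could not hold a pair, since 3211 had no box and 3221 had 1. The peak held 2 GC boxes, and 12 bases separated the nearest pair of a CCAAT and a GC box.

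**Figure D1:**
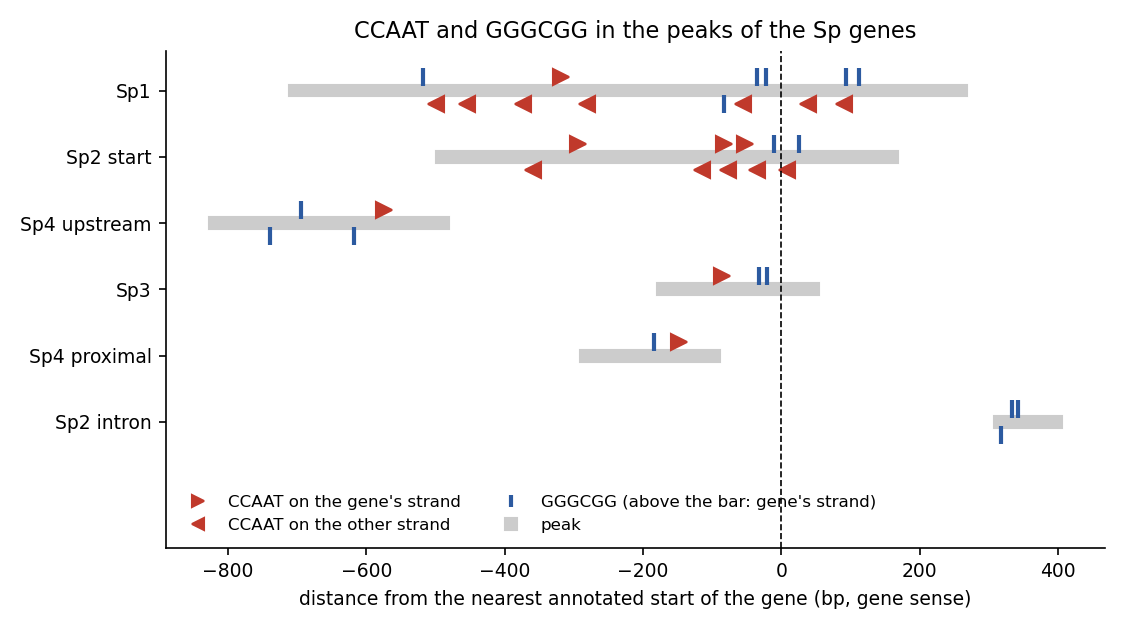
Position of CCAAT boxes and of the GC box GGGCGG in each of the 6 *Sp* peaks, in bp from the nearest transcript start, with each peak drawn to scale. *Sp1* and the stronger *Sp2* peak each hold 8 CCAAT boxes, *Sp3* and both *Sp4* peaks hold 1, and the weaker *Sp2* peak holds none.

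The peaks of *Sp4* and *Sp3* were far lower. The upstream *Sp4* peak at chr12:118301921-118302268 (348 bp) held 49, 49 and 62 normalised reads, with a mean of 53.3 ± 7.51 (SD, n = 3), and ranked 1610. Its centre was 654 bp upstream of the Sp4-202 start at position 118301440, and its single CCAAT box lay 575 bp upstream. The proximal *Sp4* peak at chr12:118301529-118301731 (203 bp) held 21, 18 and 31 normalised reads, with a mean of 23.3 ± 6.81 (SD, n = 3). It was centred 189 bp upstream of the same start, and its CCAAT box lay 148 bp upstream. At *Sp4*, the peak further from the start was thus the higher one in each of the 3 libraries.

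*Sp3* carried a single peak at chr2:72980392-72980626 (235 bp), which held 29, 24 and 22 normalised reads, or about 43, 16 and 22 reads, with a mean of 25 ± 3.61 (SD, n = 3). It ranked 3031 of 9056. It spanned the starts of 2 *Sp3* transcripts, with its centre 62 bp upstream of the Sp3-202 start at position 72980446. The antisense gene *Sp3os* also started within 1000 bp, and binding at this place cannot be assigned to 1 of the pair. The single CCAAT box, 86 bp upstream of the *Sp3* start, was 47 bases from the nearest GC box.

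The weakest *Sp* peak lay inside *Sp2*, at chr11:96977305-96977404 (100 bp), in an intron 357 bp downstream of the Sp2-203 start. It held 8, 13 and 3 normalised reads, behind which stood about 12, 9 and 3 reads, with a mean of 8 ± 5 (SD, n = 3). The value of replicate 3 was no higher than the worth of 3 reads, so binding was not detectable there in that library. This stretch was 80.0% G and C, held 3 GC boxes and had no CCAAT. A further peak inside *Sp2*, at chr11:96967227-96967326, carried no gene symbol in the table and held 3, 1 and 1 normalised reads. The values of replicates 2 and 3 were below the worth of 3 reads, so binding was not detectable at this further peak in those libraries. Its centre was 1389 bp from the Sp2-202 start, and it had no CCAAT.

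**Figure D2:**
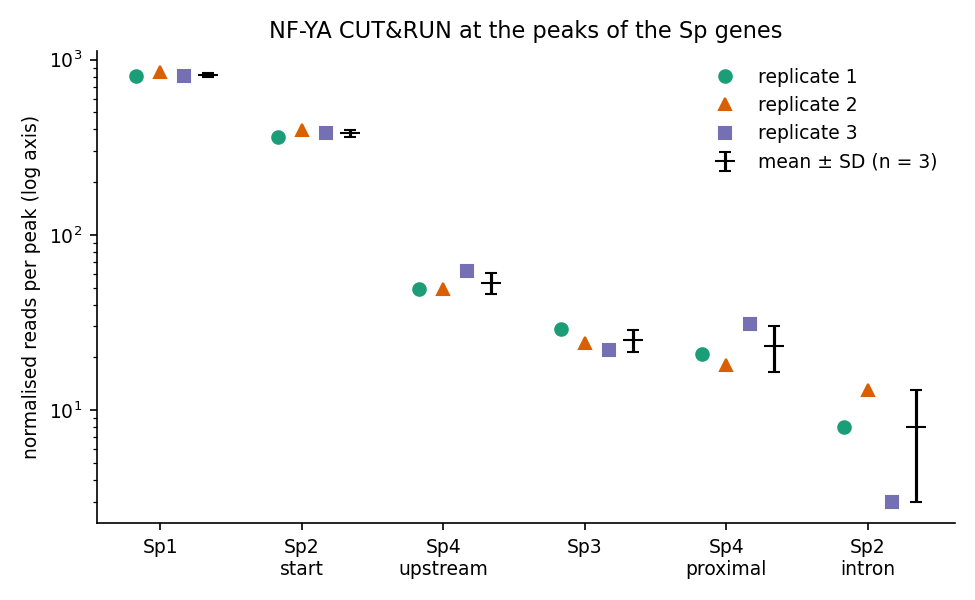
Normalised reads of the 6 *Sp* peaks in each of the 3 NF-YA libraries on a log axis, with points for single libraries and the mean. *Sp1* (822) and the stronger *Sp2* peak (379.7) stand above all values of *Sp4* (53.3 and 23.3), *Sp3* (25) and the weaker *Sp2* peak (8).

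The order of the levels was *Sp1*, the stronger *Sp2* peak, the upstream *Sp4* peak, *Sp3*, the proximal *Sp4* peak and the weaker *Sp2* peak. On the log2(value + 1) scale, *Sp1* exceeded *Sp2* by 1.11 ± 0.04 (SD over 3 libraries), and *Sp2* exceeded the upstream *Sp4* peak by 2.82 ± 0.20. The upstream *Sp4* peak exceeded *Sp3* by 1.06 ± 0.36. None of these neighbours overlapped in their 3 values. *Sp3* and the proximal *Sp4* peak did overlap, with a difference of 0.12 ± 0.52 and *Sp3* higher in 2 of 3 libraries. These neighbours did not differ beyond their spread. The proximal *Sp4* peak and the weaker *Sp2* peak differed by 1.58 ± 1.3 without overlap.

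The differences between *Sp1*, *Sp2* and *Sp3* were smaller per kb of peak than per peak, and the order of *Sp3* and the proximal *Sp4* peak turned, with 106 against 115 normalised reads per kb. The mean of *Sp1* was 2.17 times that of *Sp2* per peak and 1.47 times per kb of peak. Against *Sp3* the ratio for *Sp1* was 32.9 per peak and 7.87 per kb. Per kb of peak, *Sp1* held 837 normalised reads and *Sp2* 567.5, while the median over all peaks was 79.5. By this measure *Sp1* ranked 6 and *Sp2* ranked 56.

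Sequence was not used to choose the *Sp* peaks, but position was in part, because a gene symbol was given only to peaks near the start given for that gene. Shares are therefore given over all 9056 peaks and over the 5146 with a gene symbol. CCAAT on either strand occurred somewhere in 5 of the 6 peaks, against 64.5% of all peaks and 72.3% of those with a symbol. It lay wholly within 50 bp of the centre in 2 of the 6, those of *Sp3* and the proximal *Sp4* peak, against 52.9% of all peaks and 59.1% of those with a symbol. In the long *Sp1* and *Sp2* peaks the boxes stood further out, with 2 and 3 of the 8 within 100 bp. At least 8 boxes were present in 34 of the 9056 peaks (0.375%), and *Sp1* and the stronger *Sp2* peak were among them. Among the 100 strongest peaks, 25 held at least 8 boxes, so this number was far less rare among strong peaks. Boxes per kb were 8.15 at *Sp1* and 11.96 at the stronger *Sp2* peak, against a median of 7.62 over those 100 peaks. GGGCGG occurred in all 6 *Sp* peaks, against 35.7% of all peaks and 54.2% of those with a symbol. These shares were not matched for base content or length. The 6 peaks were 58.0% to 80.0% G and C, against a median of 55.9% over all peaks. All but the weaker *Sp2* peak were longer than the median of 197 bp. The centre was within 1000 bp of the start given in the table in 4 of 6, against 41.4% of all peaks and 68.4% of those with a symbol, so the share of the *Sp* peaks was near that of annotated peaks. It was within 1000 bp of some annotated start of the same gene in 6 of 6, against 74.5% of the 4915 peaks whose symbol was found in the gene annotation. The SD of the replicates stayed within that of counting in 3 of 6, against 46.1% of all peaks.

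The 19 CCAAT boxes of the family comprised 7 on the strand of the gene and 12 on the opposite strand. The peaks differed in this. On the strand of the gene lay 1 of 8 boxes at *Sp1* and 3 of 8 at the stronger *Sp2* peak. The single boxes of *Sp3* and of both *Sp4* peaks all lay on it. Over the 4915 peaks with an annotated symbol, 50.1% of 6912 boxes lay on the strand of the gene. Upstream of the nearest start were 16 of the 19 boxes, against 79.5% of those 6912, and 6 of the 19 matched the longer consensus, in which CCAAT follows a pair of purines and precedes C or G and a purine. Of the 10363 boxes in all peaks, 38.3% matched it.

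Median levels over all peaks were higher in each class with more CCAAT boxes, and peaks with more boxes were mostly longer, apart from those with 7 boxes (609 bp) against 6 (633 bp). The median was 8.67 normalised reads for 3211 peaks without a box, 15 for 3221 peaks with 1 box and 482 for the 34 peaks with at least 8. The median length of these 3 classes was 147, 192 and 802.5 bp. The weaker *Sp2* peak, without a box, was near the median of its class, while *Sp3* and both *Sp4* peaks were above that of peaks with 1 box. *Sp1* lay above the median of its class and the stronger *Sp2* peak below it.

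**Figure D3:**
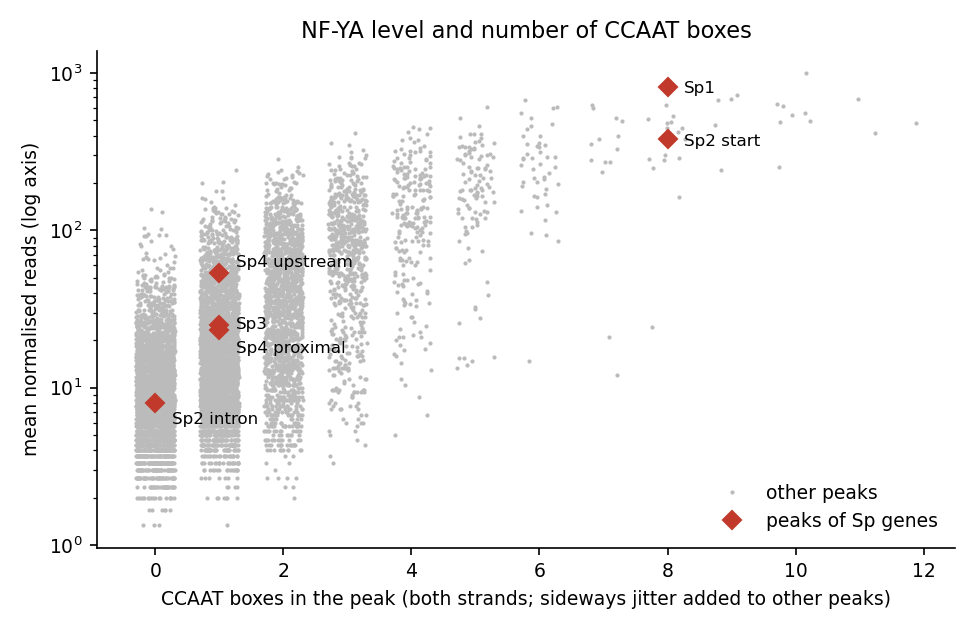
Normalised reads (mean of 3 libraries, log axis) of all 9056 peaks by their number of CCAAT boxes, with the *Sp* peaks marked. Class medians, which are not drawn, go from 8.67 without a box to 482 with at least 8. *Sp1* (822) stands above the median of its class while the stronger *Sp2* peak (379.7) stands below.

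The peaks most like that of *Sp1*, taken as the 5 strongest others with at least 8 boxes, belonged to *Cic*, *Tomm40*, *Ppm1b*, *Zbtb20* and *Fam72a*. *Cic*, which encodes a transcriptional repressor, had the only higher mean, with 832, 1083 and 1075 normalised reads (997 ± 143, SD, n = 3) and 10 boxes. *Tomm40*, a mitochondrial import channel, reached 729 ± 80.3 with 9 boxes. *Ppm1b*, a protein phosphatase, reached 688 ± 126 with 11. The zinc-finger repressor gene *Zbtb20* had 685 ± 69.4 and *Fam72a* had 678 ± 82.0, each with 9 boxes. In replicate 1 *Cic* differed from *Sp1* by less than in the other libraries, so the margin between them was smallest there.

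Promoter sequence from RefSeq (250 bases before to 50 after each start, GRCm38.p6) was matched for 5 of the 6 genes, in 8 windows. The table had no window for *Sp6*. Of the 8 windows, 4 overlapped a peak, against 11% of 32851 windows, and all 4 held CCAAT and GGGCGG. These windows belonged to *Sp1* with 3 CCAAT boxes, to *Sp2* with 6, and to *Sp3* and *Sp4* with 1 each. Of the 4 windows without a peak, those at the other *Sp2* starts and the other *Sp3* start held no CCAAT, and that of *Sp5* held 1. GGGCGG was present in 1 of these 4, the *Sp3* window, which held 5 copies, as many as the *Sp4* window with a peak. CCAAT occurred in 37.4% of all windows and GGGCGG in 35.7%. Among all windows, a peak was present in 3.83% of those without CCAAT, in 14.4% of those with 1 box, in 53.0% of those with 3 and in 20 of 26 with at least 6.

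*Sp5* and *Sp6* had no peak near any annotated start. The nearest peak centre was 264242 bp from the *Sp5* start, and 35519 bp from the first *Sp6* start. For *Sp6* this nearest peak was the strong one at its chromosome neighbour *Sp2*. Since the table lists only called peaks, it sets no upper limit on the signal at these genes.

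The rest of the SP/KLF family, to which the *Sp* genes belong, had lower peaks than the stronger *Sp2* peak. Of 20 further SP and KLF genes, 8 carried a peak, 11 peaks in all. Without the share of all genes that carry a peak, this count is a description only. The median was 46 normalised reads over the 11 peaks, against 39.2 for the 6 *Sp* peaks and 21.7 for the 5146 peaks with a gene symbol. *Klf9*, a factor induced by glucocorticoids, was the highest, with 198, 239 and 208 normalised reads (215 ± 21.4, SD, n = 3) and 6 CCAAT boxes. *Klf10*, an early TGF-beta response gene, had 163 ± 21 and *Klf6* 129 ± 14.6. None of the peaks of these 20 genes reached the stronger *Sp2* peak. *Sp7*, *Sp8*, *Sp9* and 9 *Klf* genes had no annotated peak.

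Genes of proteins known to work with SP1 also had lower peaks than the stronger *Sp2* peak. Of 9 such genes, 6 carried a peak, again with no share over all genes to set beside this count. The median was 74.3 normalised reads over 7 peaks. *Nfya*, which encodes the DNA-binding subunit of NF-Y itself, was the highest at 187, 174 and 184 normalised reads (182 ± 6.81, SD, n = 3). *Nfyb*, its histone-fold partner, had 91 ± 17.4, and the cell cycle factor gene *E2f1* had 77.7 ± 4.93. *Sp1* and the stronger *Sp2* peak were above all 7 of these peaks, while *Sp3* was below 5 of them. *Tbp*, *Taf7* and *Ep300*, which encode parts of the basal machinery and a coactivator, had no annotated peak.

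**Figure D4:**
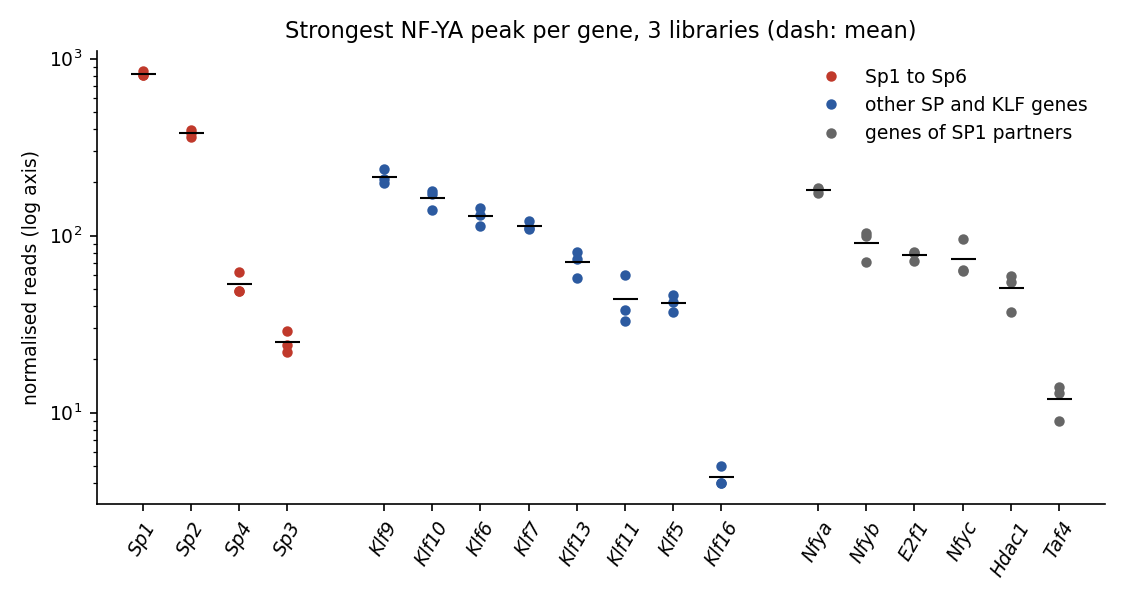
Strongest peak of each *Sp* gene, each further SP/KLF gene and each gene of an SP1 partner with an annotated peak, as normalised reads in the 3 libraries on a log axis. *Sp1* (822) and *Sp2* (379.7) are above *Klf9* (215) and *Nfya* (182), the highest of the other lists.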

How the data were processed

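CUT&RUN libraries of wild type MuSCs were prepared with 1000000 cells each, and *Sp* genes were analysed in the 3 NF-YA libraries. Following the study's methods and the submitters' processing notes, reads were trimmed (Trimmomatic 0.39), aligned to mm10 (STAR 2.7.9a) and freed of duplicates (Picard 2.25.5), and spliced, multi-mapping, ribosomal and mitochondrial reads were removed. Peaks were called with MACS at an FDR below 0.05 and unified over the samples. The deposited values, treated here as a score, were reads per peak counted with featureCounts, normalised with DESeq2 1.30.0 and rounded to whole numbers by the authors. Peaks were annotated to the nearest gene within 10000 bp of the start given for that gene, and starts of its other transcripts were not used. Multi-mapping reads were removed, so repeat-rich sequence is under-represented, and values rise with peak length. The study's reporting summary gives shorter reads for replicate 1 than for replicates 2 and 3.

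Here, the worth of 1 read per library was estimated from the whole numbers that occur, with Python 3.11.15, numpy 2.4.6 and pandas 2.3.3. The method was tested on simulated libraries, with a largest error of 0.0164%. Counting SDs rest on these estimates and cover counting error only. Sequence was read with pysam 0.24.0 from GRCm38.p6 and transcript starts from GENCODE. Motifs (CCAAT and GGGCGG, either strand) were counted over whole peaks and within 50 bp of the centre. The members and lists were chosen with earlier results of these data known. Named genes were all peaks of *Sp1* to *Sp6*, neighbours within 1000 bp, the 3 highest of each list and the 5 strongest peaks with at least as many CCAAT boxes as *Sp1*. The 3 samples of each group are described as biological replicates. The planned comparison of NF-YA with IgG was not made, because the table held values of the NF-YA libraries only. Alternatives were other windows and motifs, values per kb, a minimum mean, equal library sums, another pseudocount and leaving out each replicate. Figures were drawn with matplotlib 3.10.9.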

Additional observations from a re-analysis of the deposited data

How the results depend on the processing

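Of 41 alternatives to 9 results, 29 kept the value within the replicate spread or within 1.5 times a count, and none reversed. The number of *Sp* peaks with CCAAT near the centre, 2 within 50 bp, became 5 within 100 bp or over the whole peak and 1 with the longer consensus. The 8 CCAAT boxes of the *Sp1* peak became 3 with the longer consensus and 0 within 50 bp of the centre. *Sp1* over *Sp2* on the log2 scale, 1.11, became 0.56 per kb of peak and ranged from 1.089 to 1.127 without each replicate in turn. The percentile of *Sp1* among all peaks (99.98) became 99.94 per kb and 99.97 among peaks with a mean of at least 10. Under that minimum, *Sp2* went from 99.39 to 99.07, *Sp3* from 66.32 to 48.82 and *Sp4* from 82.17 to 72.9, since the minimum removes low peaks. Per kb, *Sp4* went to 79.81. Without each replicate in turn *Sp3* ranged from 63.04 to 67.83. No paired analysis was possible because the table gave no IgG values, and neither the comparison with IgG nor a fit with the replicate number as a block was run. The weaker *Sp2* peak rests on about 12, 9 and 3 reads in replicates 1, 2 and 3.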
